A study of Mus musculus with 11 samples.

Results

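Polysomal RNA was compared with total RNA in the lungs of mice that lack both 4E-BP repressors of translation. All arrays labelled as knockout lung were taken, 6 of the 11 arrays in the series, with 3 of polysomal RNA and 3 of total RNA. The knockout mice were Balb/c animals doubly knocked out for Eif4ebp1 and Eif4ebp2, and the sources used here do not say how the alleles were made. The remaining 5 arrays, from wild-type Balb/c lung bought from Charles River, were 3 of total RNA and 2 of polysomal RNA. Mice of both genotypes ate the purified diet AIN-93M from 5 weeks of age to the end, and the labels name no other treatment. Polysomal RNA came from a gradient cut into 10 fractions of 0.5 ml, of which fractions 7 to 10 were pooled as the part with 3 or more ribosomes per transcript. The labels do not say whether arrays came from separate mice or whether polysomal and total RNA came from the same lung. What the p-values take as error is thus the difference among arrays of a group, part of which could be technical.

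The proteins 4E-BP1 and 4E-BP2 bind the cap-binding factor eIF4E and keep it from joining eIF4G, which blocks the recruitment of ribosomes to capped messages. The kinase mTORC1 phosphorylates them, and the phosphorylated proteins let go of eIF4E. Messages that carry several ribosomes at once sediment as polysomes, so a message's level in polysomal RNA set against its level in total RNA is used as a measure of how heavily it is loaded. Messages of ribosomal proteins and elongation factors start with a run of pyrimidines (the 5' terminal oligopyrimidine or TOP motif) and are known as the class whose loading depends most on mTORC1 and the 4E-BPs.

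Values are levels on a log2 scale, so that 1 unit is a 2-fold change, and a difference below is the mean level of the 3 polysomal arrays minus that of the 3 total arrays in knockout lung unless another group is named. Normalization gave all arrays nearly the same median over all probe sets, from 4.96 to 5.04. Over the tested probe sets the array medians ran from 8.33 to 8.55. A difference is therefore relative to the other messages and says nothing of how much RNA was on polysomes in all. Polysomal and total RNA also differed in how they were prepared, and RNA kind and preparation cannot be told apart. Arrays of knockout total RNA correlated at 0.99 with each other over the tested probe sets, and so did arrays of knockout polysomal RNA. The tests share the spread of all 11 arrays. Wild-type total replicate 3 correlated less well with replicates 1 and 2 (0.982 and 0.977) than these did with each other (0.993). The first principal component of all 11 arrays (83.4% of the variance) separated the RNA kinds. The marker of the labelled tissue was high: Sftpc, the surfactant protein C of alveolar type 2 cells, stood at 16.13, 16.13 and 16.12 on the total arrays and 16.09, 16.01 and 16.17 on the polysomal arrays, near the top of the scale at 16.7.

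Most messages differed between polysomal and total RNA. Of 8085 genes tested, 5275 (65.2%) passed the limma test at a Benjamini-Hochberg adjusted p under 0.05. Of all genes tested, 3195 (39.5%) were higher in polysomal RNA and 2080 (25.7%) were lower, while 2810 did not pass. The 3 polysomal and 3 total arrays did not overlap for 6150 genes (76.1%). Differences of at least 2-fold were found for 1771 higher and 854 lower genes, and of at least 8-fold for 107 higher and 18 lower genes. The median difference was 0.13, the interquartile range ran from -0.37 to 0.89, and the spread between replicate arrays was smaller, with a median SD of 0.14 in polysomal and 0.12 in total RNA.

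The deleted genes were read first. Eif4ebp2 stood at 2.61, 3.10 and 3.26 on the 3 knockout total arrays and 3.90, 3.92 and 3.75 on the 3 polysomal arrays, against 4.50, 5.49 and 4.67 on the wild-type total arrays and 5.76 and 6.09 on the wild-type polysomal arrays. All knockout arrays were lower than the wild-type arrays of the same RNA kind. Probe sets too dim to test had array medians of 2.30 to 2.39 in knockout lung, and the knockout polysomal arrays lay further above these than the knockout total arrays. Its difference in knockout lung, 0.87 (SE 0.25, limma adjusted p = 0.0125), has both means under 5, so its size is not well measured, and without total replicate 1 it no longer passed (adjusted p = 0.0529). Eif4ebp1 was still at 7.94, 7.92 and 7.93 on the total arrays and at 7.36, 7.05 and 7.15 on the polysomal arrays of knockout lung, against 8.25, 8.54 and 8.20 and 7.78 and 7.93 in wild-type lung. Its knockout arrays were thus lower than the wild-type arrays of the same RNA kind but far above the dim probe sets, and it had a difference of -0.74 (SE 0.11, limma adjusted p = 0.000281). No source used here places its probes against the part of the gene that was removed, and probes outside it would not check the label. Eif4ebp3, the third 4E-BP gene, which was not targeted, stood at 9.73, 9.70 and 9.60 on the total arrays and 9.21, 8.94 and 8.96 on the polysomal arrays. It was lower in polysomal RNA by its difference of -0.64 (SE 0.11, limma adjusted p = 0.000495).

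Eif4e, the target of the repressors, stood at 9.45, 9.69 and 9.48 on the total arrays and 9.21, 9.33 and 9.27 on the polysomal arrays. The groups did not overlap, but the difference of -0.27 (SE 0.09, limma adjusted p = 0.0269) was small and no longer passed without total replicate 2 or polysomal replicate 1 or 3 (adjusted p from 0.0591 to 0.105). In wild-type lung the difference was -1.25, and the change between genotypes passed the interaction test (0.98, limma adjusted p = 0.00375). Eif4a1, the helicase that unwinds the leader for eIF4E's complex, was lower in polysomal RNA (-0.51, SE 0.11, limma adjusted p = 0.00178).

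Of the gene lists with at least 5 tested members, the ribosomal proteins had the lowest median difference. The start of these messages is shown first because the TOP motif lies there. A run was counted where the annotated start in RefSeq (GRCm38.p6) is a C followed by at least 4 further C or T, so at least 5 pyrimidines in all. A gene was counted if any of its annotated starts had such a run. This held for 4 of the 16 tested ribosomal protein genes with a start in the table. Over all tested genes with a start there, it held for 191 of 6478 (2.95%). Counted by start and not by gene, the share was 2.51% of all 32851 starts in the table. Each line gives 10 bases before the start and 20 from it on, 5' to 3' on the gene's strand, with the run in capitals. The first 4 are ribosomal protein genes and the last 3 are other genes held to be TOP messages.
Rps21 (chr2:180257369-180257398, plus strand): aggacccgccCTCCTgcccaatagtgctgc
Rps10 (chr17:27635225-27635254, minus strand): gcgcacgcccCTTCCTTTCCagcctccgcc
Rplp2 (chr7:141447641-141447670, plus strand): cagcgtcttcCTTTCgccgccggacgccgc
Rpl14 (chr9:120571507-120571536, plus strand): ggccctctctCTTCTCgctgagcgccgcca
Eif3f (chr7:108934405-108934434, plus strand): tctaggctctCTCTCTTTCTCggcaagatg
Nap1l1 (chr10:111473217-111473246, plus strand): gctctcgggtCTTTTTTagcgccatctgct
Rack1 (chr11:48800350-48800379, plus strand): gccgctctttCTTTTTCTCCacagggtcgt

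Ribosomal proteins build the 2 subunits of the ribosome. Of 80 genes listed, 24 had a matched probe set and 21 were tested; 17 of these were lower in polysomal RNA, 1 was higher and 3 did not pass, with a median difference of -0.93 against 0.13 over all genes tested. As a mean over the 21 genes, the level was 12.21, 12.37 and 12.27 on the total arrays and 11.25, 11.29 and 11.33 on the polysomal arrays, with no overlap. Rps21, a small-subunit protein whose start is printed above, stood at 15.36, 15.41 and 15.31 on the total arrays and 13.15, 13.26 and 13.33 on the polysomal arrays. Every polysomal array of Rps21 lay below every total array, and the difference was -2.12 (SE 0.09, limma adjusted p = 1.4e-07). Rpl32 of the large subunit stood at 8.98, 8.81 and 8.77 in total RNA and 7.52, 7.89 and 7.60 in polysomal RNA (-1.18, SE 0.13, limma adjusted p = 3.27e-05). Rpl31, Rps27l and Rps24 were lower as well, with differences of -1.81, -1.66 and -1.65. Rpl37a had the lowest difference, -3.60, but its polysomal mean was under 5, so its size is not well measured. Rps9 was the 1 member that was higher, with 0.94 (SE 0.14, limma adjusted p = 0.000257). Rpl4 (-0.18), Rps3 (0.06) and Rpl8 (0.12) did not pass. Many ribosomal protein genes have near-identical processed copies in the genome, and the sources used here do not say whether probes were shared with these, so the values are uncertain to that extent.

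The printed starts did not sort the ribosomal proteins. The 4 with the run were all lower (median -1.17), and of the 12 without it 9 were lower and 1 was higher (median -1.13). Among all tested genes with a start in the table, those with the run had a median difference of 0.12 (76 higher and 51 lower of 191) and those without it 0.13 (2480 higher and 1640 lower of 6287). An annotated start can lie some bases from the start used in lung, so a missing run says only that these letters are not at that base.

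Other TOP messages went both ways. Of 11 tested, 4 were higher, 2 were lower and 5 did not pass (median -0.06). The shares, 36.4% higher and 18.2% lower, stand beside 39.5% and 25.7% of all genes tested, which went both ways too. After quantile normalization 3 were higher and 5 lower (median -0.28), and the median was 0.03 without total replicate 2 and 0.01 without polysomal replicate 1. Eef2, the translocase of elongation, stood at 11.44, 12.01 and 11.98 on the total arrays and 13.99, 13.95 and 13.91 on the polysomal arrays. It was higher by 2.14 (SE 0.22, limma adjusted p = 1.7e-05) with no overlap. Eif3f, a subunit of the initiation factor eIF3 whose start carries the run, was lower at 13.88, 13.97 and 13.86 in total RNA against 12.70, 12.89 and 13.16 in polysomal RNA (-0.99, SE 0.13, limma adjusted p = 0.000109). Rack1, a ribosome-bound scaffold, had -0.06 and Pabpc1, the poly(A)-binding protein, -0.14, and neither passed. Pabpc1 passed with -0.45 (adjusted p = 0.0234) after quantile normalization, and its value turned to 0.03 without total replicate 2.

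Initiation factors went both ways. Of 40 factors and regulators tested, 20 were higher, 12 were lower and 8 did not pass, with a median of 0.33. The shares were 50% higher and 30% lower, against 39.5% and 25.7% of all genes tested. Subunits of eIF3, the scaffold that brings the small ribosomal subunit to the message, were among the higher ones: Eif3a stood at 5.53, 5.75 and 5.76 on the total arrays and 7.20, 7.79 and 7.90 on the polysomal arrays (1.95, SE 0.17, limma adjusted p = 5.56e-06). Eif3m (1.60) and Eif3b (1.04) passed too. Eif6, which keeps the large subunit from joining too early, was the highest of the list, with 10.56, 10.63 and 10.48 in total RNA and 12.69, 12.83 and 12.66 in polysomal RNA (2.17, SE 0.11, limma adjusted p = 2.65e-07). The eIF2B exchange factor subunits Eif2b1, Eif2b5 and Eif2b4 were higher by 1.55, 1.21 and 1.04. Lower were Eif5a2 (-1.20), Eif1a (-0.93), the cap-binding relatives Eif4e3 (-0.73) and Eif4e2 (-0.39), and Mknk2 (-0.71), a kinase of eIF4E. Aminoacyl-tRNA synthetases, which charge tRNAs with their amino acids, and the scaffold proteins Aimp1 and Aimp2 of their complex were mostly higher: 20 of 30 higher, 1 lower and 9 not passing, with a median of 0.77. Rars (arginine) stood at 8.49, 8.88 and 8.62 and 11.02, 10.91 and 11.06 on total and polysomal arrays (2.33, SE 0.13, limma adjusted p = 4.7e-07), and Sars (serine) at 9.62, 9.60 and 9.59 and 11.06, 11.23 and 11.05 (1.51). Of the 9 that did not pass, 8 were the mitochondrial forms Vars2, Yars2, Tars2, Pars2, Hars2, Iars2, Sars2 and Ears2, and the other was Qars. Of the other mitochondrial forms tested, Fars2 (1.34) and Rars2 (0.61) were higher and Lars2 (-0.29) was the lower member.

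Of 24 messages that textbooks give as sensitive to eIF4E, 15 were tested; 9 were higher, 2 lower and 4 did not pass, with a median of 0.63. The count was not stable: without total replicate 1, 5 were higher and 1 lower, and with no filter on low values 6 of 23 were higher and 4 lower, with a median of 0.08. The D cyclins, which drive entry into the cell cycle, did not all pass. Ccnd3 stood at 9.02, 8.96 and 9.22 on the total arrays and 10.64, 10.53 and 10.35 on the polysomal arrays (1.44, SE 0.16, limma adjusted p = 3.59e-05), and Ccnd2 at 9.21, 9.32 and 9.20 and 10.66, 10.66 and 10.68 (1.42, adjusted p = 1.99e-06). Ccnd1, with 11.25, 11.22 and 11.27 and 11.31, 11.18 and 10.91, overlapped and did not pass (-0.12, SE 0.11, limma adjusted p = 0.39), though it passed after quantile normalization (-0.34, adjusted p = 0.032). Vegfa, the endothelial growth factor, was higher at 8.79, 8.98 and 8.81 in polysomal RNA against 7.87, 8.13 and 7.97 in total RNA (0.87, SE 0.11, limma adjusted p = 8.37e-05). Mcl1, a survival factor, was lower by a difference of -0.27 (limma adjusted p = 0.0332) and no longer passed without total replicate 1 or polysomal replicate 1 or 2 (adjusted p from 0.0992 to 0.123). Myc did not pass (-0.53, SE 0.27, adjusted p = 0.113). In the mTOR pathway itself 3 of 15 genes were higher, 2 lower and 10 did not pass (median -0.01), and with no filter on low values 7 of 27 were higher and 4 lower. Rraga, the small GTPase RagA that brings mTORC1 to the lysosome, stood apart at 6.03, 6.05 and 5.95 in total RNA and 9.63, 10.00 and 10.04 in polysomal RNA (3.88, SE 0.17, limma adjusted p = 1.41e-07).

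The proteasome, the machine that degrades ubiquitin-tagged proteins, had the highest median of the 39 lists. Of 43 subunits and assembly factors tested, 39 were higher, 1 was lower and 3 did not pass, and the median was 1.56. The mean over the 43 genes was 9.97, 10.18 and 10.04 on the total arrays and 11.61, 11.67 and 11.65 on the polysomal arrays. Psmb10, a catalytic subunit of the immunoproteasome, stood at 9.94, 10.06 and 9.89 on the total arrays and 12.87, 12.98 and 12.86 on the polysomal arrays. Its polysomal arrays lay close together and far above the total arrays (2.94, SE 0.08, limma adjusted p = 2.01e-08). The other immunoproteasome catalytic subunits Psmb8 and Psmb9 differed by 2.69 and 2.76, and the constitutive ones Psmb5, Psmb6 and Psmb7 by 1.68, 1.86 and 2.97. Psmd13 of the regulatory lid stood at 9.47, 9.72 and 9.59 and 11.85, 11.74 and 11.73 (2.18, SE 0.11). Psme3, an activator ring subunit, was the lower one (-0.37). Ubiquitin-conjugating enzymes, which pass ubiquitin on to substrates, had 4 higher, 9 lower and 12 not passing of 25, with a median of -0.26. Ube2v2 stood at 7.95, 8.03 and 7.86 on the total arrays and 5.90, 5.77 and 5.79 on the polysomal arrays (-2.13, SE 0.09, limma adjusted p = 1.16e-07). Ube2o went the other way, from 2.35, 2.38 and 2.31 to 6.57, 5.49 and 6.01 (3.68), with a total mean under 5.

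**Figure D1:**
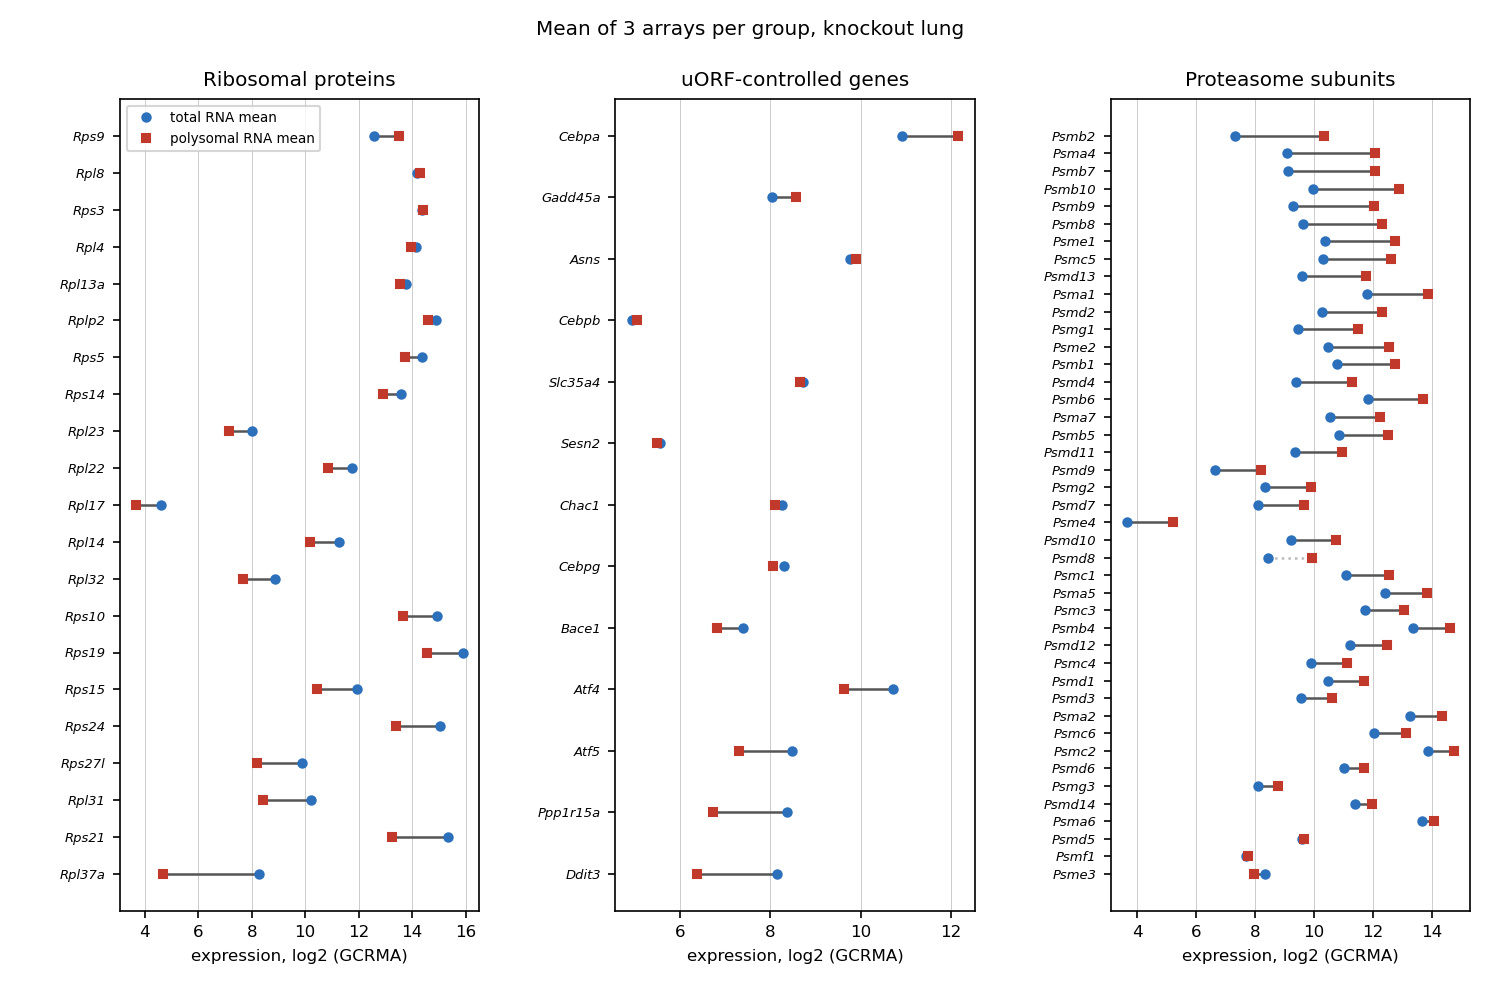
Mean level in knockout lung (x axis, log2) of each tested ribosomal protein gene, each gene controlled by upstream reading frames and each proteasome gene (y axis), in total RNA (blue circles) and polysomal RNA (red squares), as means of 3 arrays; dotted lines join genes whose difference did not pass. Of the ribosomal proteins 17 of 21 were lower in polysomal RNA, and of the proteasome genes 39 of 43 were higher.

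Genes whose messages carry short reading frames upstream of the coding region, and whose products serve the integrated stress response, were tested for 13 members. Of these 5 (38.5%) were lower, against 25.7% of all genes, 2 were higher and 6 did not pass, with a median of -0.15. Atf4, the transcription factor at the centre of that response, stood at 10.73, 10.77 and 10.64 on the total arrays and 10.02, 9.34 and 9.53 on the polysomal arrays (-1.08, SE 0.16, limma adjusted p = 0.000182). Its targets Ddit3 (CHOP) and Atf5 were lower too. Ddit3 stood at 8.16, 8.19 and 8.09 and 6.40, 6.37 and 6.34 (-1.78, SE 0.18, limma adjusted p = 1.89e-05), and Atf5 at 8.40, 8.63 and 8.44 and 7.35, 7.35 and 7.25 (-1.17, adjusted p = 1.84e-05). Ppp1r15a, which helps to end the response by dephosphorylating eIF2, had -1.65. None of these genes had overlapping groups. Cebpa (1.25) and Gadd45a (0.52) were the higher ones. Heat shock proteins and other chaperones, which help proteins fold in several compartments, were higher in 15 of 25 cases, lower in 2 and not passing in 8 (median 0.83). Serpinh1, the collagen chaperone of the endoplasmic reticulum, stood at 10.54, 10.44 and 10.92 and 13.26, 13.70 and 13.47 (2.84, SE 0.14), and Dnajc7 at 11.36, 11.34 and 11.31 and 12.83, 12.89 and 12.82 (1.51). Hspb6 was lower (-2.87). Immediate early genes, switched on within minutes of a stimulus, had 12 higher, 5 lower and 12 not passing of 29, a share higher of 41.4% that lies near the 39.5% of all genes (median 0.25, and 0.05 after quantile normalization, where all genes had 0.04). Ier2 was higher by 2.76 with no overlap between groups, and Zfp36, which destabilises cytokine messages, stood at 9.57, 9.56 and 9.60 and 11.17, 11.12 and 10.92.

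Selenoprotein messages, which read a stop codon as selenocysteine, were split into 6 higher, 5 lower and 5 not passing of 16 (median 0.06, and -0.08 after quantile normalization). The shares were 37.5% higher and 31.2% lower, against 39.5% and 25.7% of all genes tested. Selenow was lower, at 12.19, 12.18 and 11.88 on the total arrays and 9.90, 10.39 and 10.14 on the polysomal arrays (-1.94, SE 0.18), while the thioredoxin reductase Txnrd1 was higher (1.36, SE 0.10). Messages with an iron-responsive element had 2 higher, 1 lower and 3 not passing of 6 (median 0.29, and -0.02 after quantile normalization). Fth1, the ferritin heavy chain, whose element lets iron-regulatory proteins block its translation, stood at 12.92, 13.06 and 12.94 in total RNA and 13.28, 13.39 and 13.53 in polysomal RNA. Its knockout groups did not overlap, yet it did not pass with the spread shared over all 11 arrays (0.43, SE 0.20, limma adjusted p = 0.0954). When the knockout arrays were fitted alone, it passed (adjusted p = 0.00655).

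Messages of the secretory route were mostly higher. Lung matrix genes were higher in 34 of 53 cases and 19 did not pass (median 0.92). Ltbp4, a microfibril protein of elastic fibres, stood at 7.02, 7.52 and 7.48 on the total arrays and 11.62, 11.95 and 12.01 on the polysomal arrays (4.53, SE 0.17, limma adjusted p = 9.02e-08), and Mfap2 of the same fibres at 7.75, 7.53 and 7.29 and 11.12, 11.52 and 11.23 (3.77). Elastin itself (Eln) differed by 1.41. Collagens did not all pass, with Col1a2 at 1.67 and Col4a3 at 1.71, both higher, and Col5a1 (0.01) and Col4a1 (0.32) not passing. Genes for translocation, glycosylation and folding in the endoplasmic reticulum had 30 higher, 5 lower and 11 not passing of 46 (median 0.69). Pdia3, a disulfide isomerase, stood at 9.34, 9.95 and 9.64 and 12.45, 12.97 and 12.65 (3.04, SE 0.20), and Dad1 of the oligosaccharyltransferase at 10.77, 11.03 and 10.88 and 13.14, 13.09 and 13.04 (2.20). Among the lower ones were Srp19 (-1.29) and Srp9 (-0.93), proteins of the particle that targets ribosomes to the membrane. Lysosomal genes were higher in 40 of 47 cases and 7 did not pass (median 0.85). By limma 0 genes of the matrix and lysosomal lists were lower, at an adjusted and at an unadjusted p under 0.05. After quantile normalization 2 matrix genes were lower, and 1 was lower without polysomal replicate 3. With no filter on low values 1 lysosomal gene was lower. Psap, the precursor of the saposins, stood at 9.60, 9.58 and 9.52 on the total arrays and 12.47, 12.65 and 12.71 on the polysomal arrays (3.04, SE 0.13, limma adjusted p = 1.3e-07), and Acp5 at 7.54, 7.57 and 7.60 and 10.10, 10.23 and 10.12 (2.58). Integrins, the receptors for matrix, were higher in 10 of 14 cases, lower in 2 and not passing in 2 (median 1.10). With no filter on low values 9 of 27 were higher and 2 lower, with a median of 0.00. Itgb1, the common beta chain, stood at 8.37, 8.69 and 8.93 and 11.34, 11.77 and 11.74 (2.95, SE 0.18), and Itgb7 at 4.75, 4.99 and 5.38 and 8.54, 8.62 and 7.96 (3.34). The list was matched by symbol and also took in Itgb3bp, a centromere protein, which was 1 of the 2 lower ones (-1.34). The 137 solute carriers, membrane transporters, showed no such lean, with 43 higher, 32 lower and 62 not passing (median 0.06). Slc1a5, a glutamine transporter, was among the higher ones at 9.64, 9.77 and 9.79 and 11.77, 11.78 and 12.01 (2.12, SE 0.11).

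**Figure D2:**
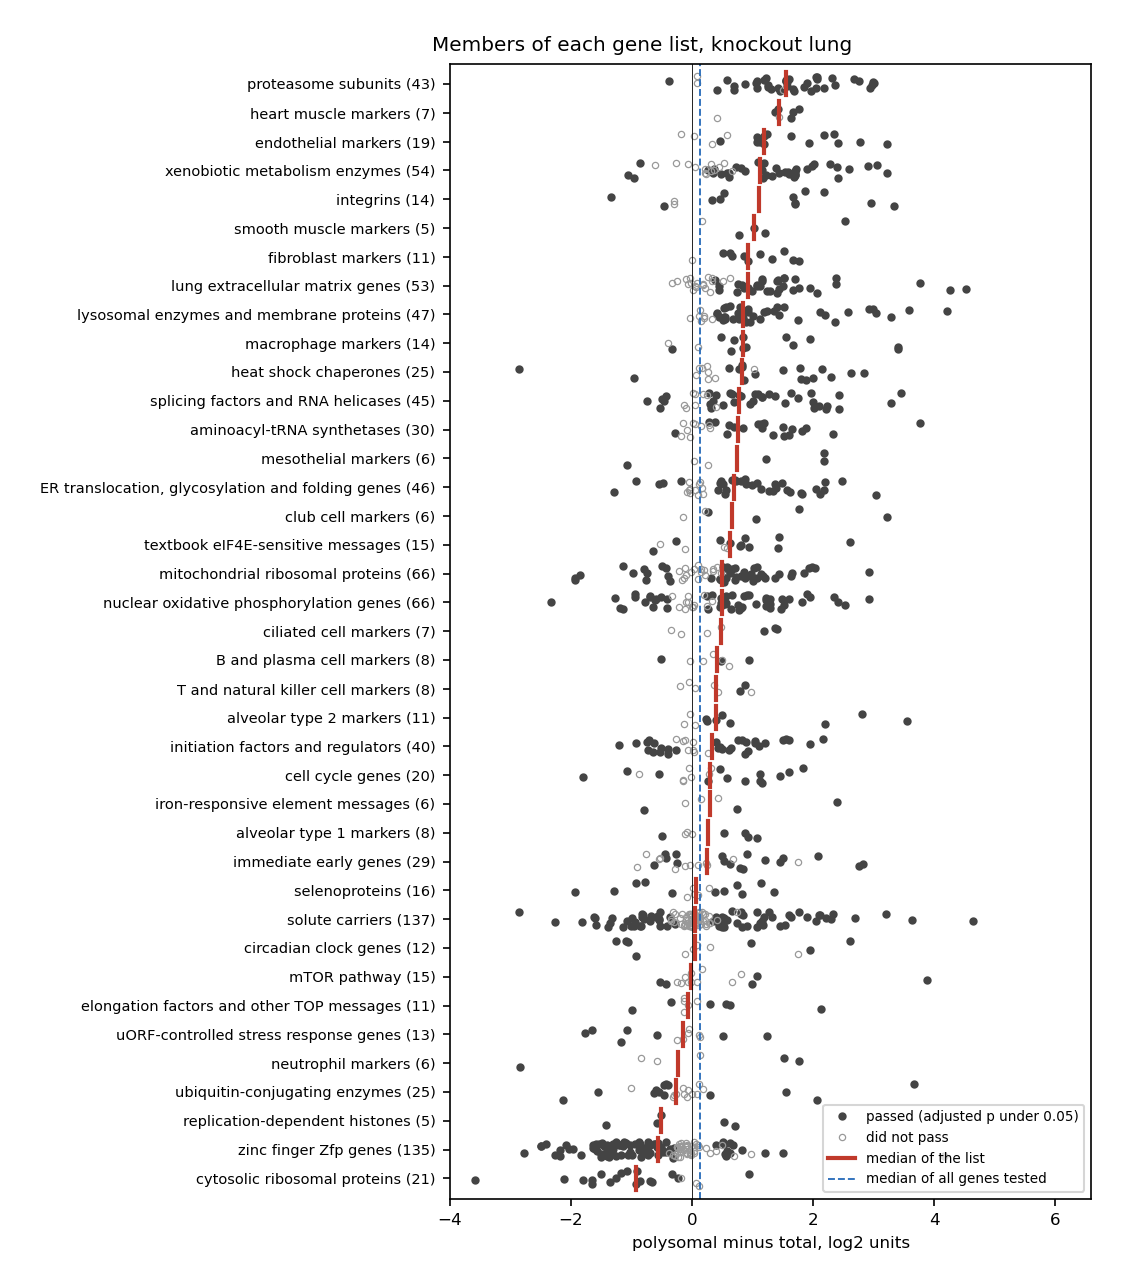
Difference between polysomal and total RNA in knockout lung (x axis, log2 units) of every tested member of each list with at least 5 tested members (y axis, number tested in parentheses); filled points passed at an adjusted p under 0.05, open points did not, red bars are list medians and the dashed line is the median of all genes tested, 0.13. The medians run from -0.93 for ribosomal proteins to 1.56 for the proteasome.

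Mitochondrial genes encoded in the nucleus spread widely. Oxidative phosphorylation genes had 39 higher, 15 lower and 12 not passing of 66 (median 0.49), and after quantile normalization 30 higher and 21 lower (median 0.22). Ndufs3, a core subunit of complex I, stood at 9.87, 9.95 and 9.73 on the total arrays and 12.36, 12.11 and 12.32 on the polysomal arrays (2.42, SE 0.14, limma adjusted p = 5.74e-07), and Sdhc, a membrane subunit of complex II, at 9.69, 9.86 and 9.71 and 11.74, 11.59 and 11.65 (1.91). The ATP synthase subunits Atp5b and Atp5pb were higher by 2.53 and 2.92. Among the lower ones were the accessory subunits Uqcr10 (-2.33), Cox7a1 (-1.27), Cox7a2 (-1.19) and Ndufa2 (-1.13). Mitochondrial ribosomal proteins had 37 higher, 12 lower and 17 not passing of 66 (median 0.50). Mrps24 stood at 10.70, 10.59 and 10.80 and 8.74, 8.78 and 8.75 (-1.94, SE 0.10), and Mrpl33 at 12.87, 12.67 and 12.84 and 10.97, 10.82 and 11.02 (-1.86), both lower, while Mrpl4 was higher (2.93). Xenobiotic metabolism enzymes, which handle foreign and oxidised compounds in the airway, were higher in 38 of 54 cases, lower in 3 and not passing in 13 (median 1.12). Cbr2, a carbonyl reductase of club cells, stood at 12.11, 12.21 and 11.89 on the total arrays and 15.27, 15.33 and 15.29 on the polysomal arrays (3.23, SE 0.19), and the glutathione transferase Gstm1 at 11.95, 12.13 and 11.94 and 14.43, 14.28 and 14.54 (2.41).

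Messages for nuclear proteins fell into unlike groups. Of 135 zinc finger genes named Zfp, mostly DNA-binding regulators, 80 were lower, 13 were higher and 42 did not pass (median -0.56). Zfp706 stood at 13.42, 13.44 and 13.41 on the total arrays and 11.82, 11.74 and 12.01 on the polysomal arrays (-1.57, SE 0.12, limma adjusted p = 2.41e-06), and Zfp367 at 8.75, 8.65 and 8.84 and 7.34, 7.27 and 7.14. Zfp36, which acts on messages and not on DNA, is in this list by its symbol and was 1 of the 13 higher ones. Splicing factors and RNA helicases leaned the other way, with 32 higher, 5 lower and 8 not passing of 45 (median 0.77). Snrnp70, a protein of the U1 particle, stood at 9.27, 9.18 and 9.35 and 11.57, 11.72 and 11.81 (2.43, SE 0.11), and Sf3b2 of the U2 particle at 8.23, 8.45 and 8.15 and 9.94, 10.08 and 10.08 (1.76). Cell cycle genes had 10 higher, 3 lower and 7 not passing of 20 (median 0.30, and -0.01 with no filter on low values). The thymidine kinase Tk1 stood at 4.73, 4.51 and 4.39 in total RNA and 6.33, 6.86 and 5.97 in polysomal RNA (1.84), with a total mean under 5, and the replication helicase subunit Mcm3 at 5.83, 6.35 and 6.12 and 7.70, 7.59 and 7.40 (1.46). Clock genes had 3 higher, 4 lower and 5 not passing of 12 (median 0.05, and -0.01 with equal array medians). The clock receptors Nr1d1 (2.61) and Rora (1.94) were higher, and Clock (-1.25) and Cry1 (-1.10) were lower. All 5 tested histone genes passed, 2 higher and 3 lower; H2bc21 had -1.42 and the linker histone H1f2 had 0.53, which did not pass after quantile normalization (adjusted p = 0.0903).

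RNAs that are not translated were read as well. Of 28 listed nuclear or noncoding RNAs, 5 had a matched probe set and 2 were tested, and both were lower. Snhg1, a host of small nucleolar RNAs, stood at 6.91, 6.77 and 6.91 on the total arrays and 5.21, 5.46 and 5.39 on the polysomal arrays (-1.51, SE 0.10, limma adjusted p = 1.21e-06), and Tug1 at 9.08, 9.05 and 9.03 and 8.09, 8.18 and 8.04 (-0.95, adjusted p = 7.28e-06). Every polysomal array still held both above 5. By accession class, counting probe sets with exactly the same values as another once, 4 tested probe sets were curated noncoding RNAs, of which 3 were lower and 1 did not pass (median -1.23). With no filter on low values 30 were tested, 6 were lower, and the median was -0.08.

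The genes that differed most with both means at least 5 came from several of these groups. Such a mean does not place every array above 5, and the cut was not checked against the background of each probe set. The total arrays of Rab1b, named below, gave 4.36, 6.17 and 6.02. H2-DMb1, a chain of the molecule that loads peptides onto class II antigens, stood at 6.21, 6.67 and 6.69 on the total arrays and 11.12, 11.46 and 11.01 on the polysomal arrays. The lowest polysomal array lay far above the highest total array (4.67, SE 0.25, limma adjusted p = 3.72e-07). Its near-identical neighbour H2-DMb2 gave 5.04, 5.03 and 5.25 and 9.52, 9.29 and 9.08 (4.19), and how probes were shared between the pair is uncertain. Cirbp, a cold-induced RNA-binding protein, stood at 4.96, 5.52 and 5.04 and 10.05, 9.83 and 9.60 (4.65, SE 0.40). Pfn1, the actin-binding profilin, gave 6.70, 7.30 and 6.75 in total RNA and 11.27, 11.29 and 10.93 in polysomal RNA (4.25, SE 0.28). The class II chain H2-Ab1 stood at 8.34, 8.70 and 8.54 and 12.82, 12.85 and 12.60 (4.23, SE 0.14). Atg101 of the autophagy initiation complex gave 4.17, Zfp871 4.16, the Rab acceptor Rabac1 3.99, Rab1b of transport from the endoplasmic reticulum 3.84, and the secreted glycoprotein Lgals3bp 3.81. All of these were picked from higher genes that passed with no overlap between groups, so these traits were set by the choice.

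Among the most lowered genes, Slfn4, a Schlafen gene of myeloid cells, stood at 9.62, 8.59 and 10.09 on the total arrays and 6.29, 5.61 and 5.51 on the polysomal arrays. Its arrays spread by over 1 unit within the total group, and the difference of -3.63 carried an SE of 0.75 (limma adjusted p = 0.00189). That SE shares the spread of all groups, and the wild-type total arrays spread more widely (10.46, 9.25 and 12.82). Znrf2, a ubiquitin ligase, was tighter at 10.58, 10.58 and 10.34 and 7.13, 6.89 and 6.70 (-3.59, SE 0.14). Bola3, an assembly factor for iron-sulfur clusters, gave 10.75, 11.02 and 10.61 in total RNA and 7.76, 7.24 and 7.48 in polysomal RNA (-3.30, SE 0.16). Pkig, an inhibitor of protein kinase A and the brightest of this group, stood at 13.78, 13.57 and 13.69 and 10.58, 10.78 and 10.90 (-2.92, SE 0.10, limma adjusted p = 5.45e-08). Ubxn2a, an adaptor of the p97 ATPase, differed by -3.26, the vasohibin partner Svbp by -2.94, the tendon transcription factor Scx by -3.15, and the growth factor Gdnf by -2.78. The remaining ones were 1110032A03Rik (-3.38), Gatad1 (-3.19), Tcf19 (-2.90) and Aida (-2.80).

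**Figure D3:**
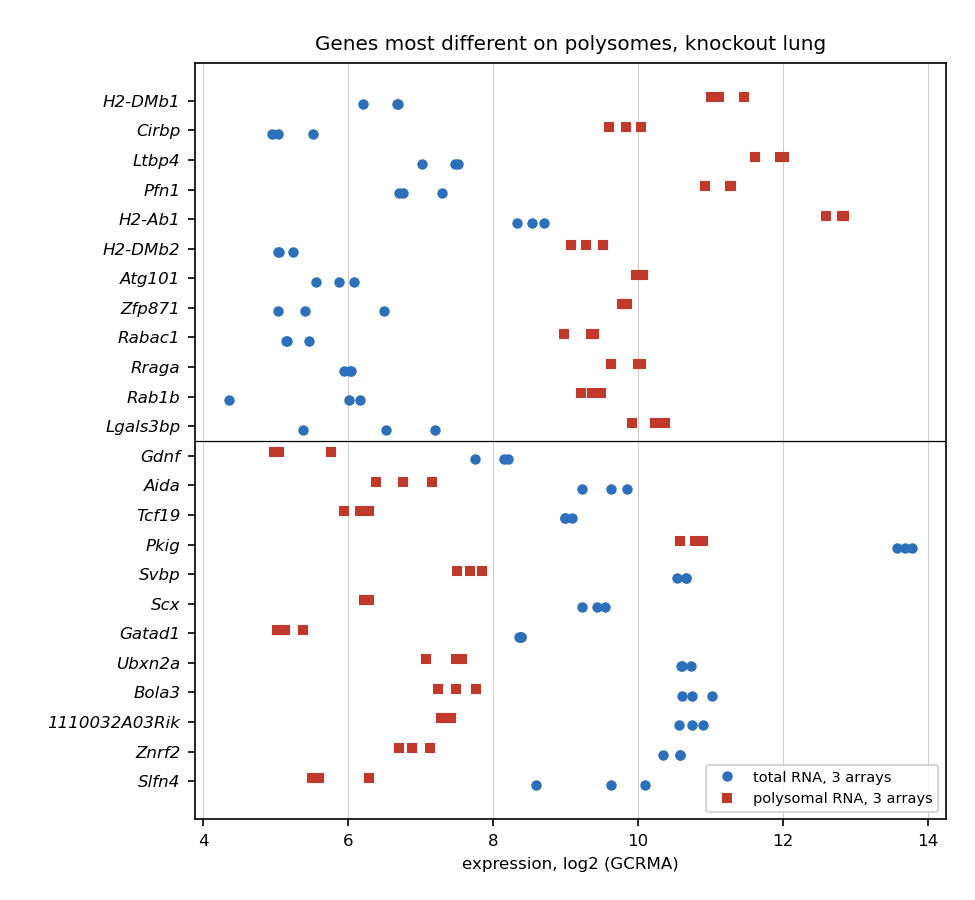
Level (x axis, log2) on each of the 3 total arrays (blue circles) and 3 polysomal arrays (red squares) of knockout lung, for the 12 most raised and 12 most lowered genes (y axis) whose groups did not overlap and whose means were at least 5. The differences run from 4.67 for H2-DMb1 to -3.63 for Slfn4.

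Where 1 of the means was under 5, the size is not well measured. The laminin receptor Bcam was near the floor in total RNA (1.74, 1.73 and 1.76) and well measured in polysomal RNA (9.37, 9.55 and 9.07), and the same held for the intramembrane protease Sppl2a (3.19, 2.91 and 2.48 and 9.40, 9.69 and 9.89). Spr, which makes tetrahydrobiopterin, and the nucleoside transporter Slc29a1 were likewise higher. On the other side the epithelial cytokine Tslp stood at 7.20, 6.38 and 7.64 in total RNA and 2.53, 2.61 and 2.59 in polysomal RNA, and Fam149a and Snx21 were likewise lower.

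Markers of lung cell types were read against the 39.5% of all tested genes that were higher and the 25.7% that were lower. In whole lung, fewer cells of a type and less RNA per cell cannot be told apart, and the polysomal and total levels of a marker come from the same mix of cells only if the same lungs were used. Endothelial markers were higher in 15 of 19 cases and 4 did not pass (median 1.19), with a list mean of 9.75 to 9.87 in total and 11.03 to 11.26 in polysomal RNA. Esam, a junction protein, stood at 11.49, 11.56 and 11.45 and 13.79, 14.04 and 13.93 (2.42, SE 0.09), and Icam2 at 11.14, 11.16 and 11.30 and 13.23, 13.53 and 13.37 (2.17). Alveolar type 2 markers were higher in 8 of 11 cases and 3 did not pass (median 0.40), and after quantile normalization 5 were higher and 1 was lower. Sftpb, surfactant protein B, stood at 10.87, 10.92 and 11.10 in total RNA and 14.53, 14.52 and 14.52 in polysomal RNA (3.56, SE 0.14, limma adjusted p = 8.52e-08). Muc1 stood at 10.59, 11.02 and 10.86 and 13.56, 13.77 and 13.57 (2.81), whereas Sftpc did not pass (-0.03, SE 0.40, adjusted p = 0.946). The SE of Sftpc shares the spread of all groups. Its array SD was 0.08 in polysomal and 0.006 in total RNA of knockout lung, but the wild-type total arrays gave 15.59, 15.82 and 13.89. Scgb1a1, the secretoglobin of club cells, did not pass either (-0.16, SE 0.08, adjusted p = 0.0981) at levels of 16.49, 16.40 and 16.51 and 16.26, 16.28 and 16.39. Both genes lie near the top of the scale, and the part of this in their small differences was not tested.

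Fibroblast markers were higher in 10 of 11 cases (median 0.92), with Dcn, a small matrix proteoglycan, at 11.13, 10.90 and 10.89 and 12.02, 12.14 and 12.14 (1.12, SE 0.10). Macrophage markers had 11 higher, 1 lower and 2 not passing of 14 (median 0.84), and the integrin Itgax stood at 8.28, 8.61 and 8.35 and 10.03, 10.17 and 10.07 (1.68). Smooth muscle markers were higher in 4 of 5 cases (median 1.03), with Tagln at 9.28, 9.43 and 9.08 and 11.55, 11.72 and 12.09 (2.53). Alveolar type 1 markers had 4 higher, 1 lower and 3 not passing of 8 (median 0.26), and the water channel Aqp5 was higher (0.93). Club cell markers had 4 higher and 2 not passing of 6 (median 0.66), ciliated cell markers 3 higher and 4 not passing of 7 (median 0.47), and mesothelial markers 3 higher, 1 lower and 2 not passing of 6 (median 0.75). Lymphocyte markers mostly did not pass, with 2 higher of 8 for T and natural killer cells (1 of 13 with no filter) and 2 higher and 1 lower of 8 for B and plasma cells. Neutrophil markers had 2 higher, 1 lower and 3 not passing of 6 (median -0.22): Ltf (1.77) and Lcn2 (1.52) were higher and Cxcr2 (-2.85) was lower.

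Markers of heart muscle, which the walls of pulmonary veins also hold, were tested for 7 of 14 genes. Of these 5 were higher and 2 did not pass (median 1.44). Their mean over the list ran from 8.24 to 9.05 on the total arrays and from 9.53 to 10.65 on the polysomal arrays. Tnnc1 stood at 8.57, 8.39 and 8.28 and 9.86, 10.00 and 10.70 (1.77, SE 0.24). On the same arrays the mean over the smooth muscle list ran from 7.67 to 7.85 and from 8.66 to 9.17, and the part of heart muscle in that result was not tested. Of the red cell precursor markers 2 of 6 measured were tested; Alas2 stood at 9.52, 10.30 and 9.50 and 12.86, 11.92 and 11.75 (2.40) and Slc4a1 did not pass (-0.03). Of the platelet markers 2 of 7 were tested, with Ppbp lower (-1.59) and Pf4 not passing (0.03).

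The difference in knockout lung was then set against the difference in wild-type lung, which was measured on other arrays. Wild-type mice were bought from Charles River, so colony and genotype cannot be told apart, and the interaction can come from total as well as from polysomal levels. Across the 8085 genes the 2 differences correlated at 0.93, given as a description, since genes are not independent and all arrays share the platform. The differences were spread less widely in knockout lung, with an SD over genes of 1.09 against 1.48 in wild-type lung. The interaction test called 1803 genes (22.3%), of which 652 (8.06% of all tested) had the larger or less negative difference in knockout lung and 1151 (14.2%) the smaller or more negative one. Of the called genes, 1609 lay nearer to 0 in knockout lung and 194 lay farther from 0. Of the 3195 genes higher on knockout polysomes, 848 had a difference below that of wild type and 114 above. Of the 2080 lower genes, 343 had a difference above that of wild type and 97 below. On the first principal component, the knockout total arrays (-55.0, -44.9 and -51.9) lay nearer to the polysomal side than the wild-type total arrays (-82.6, -76.3 and -89.1), and the knockout polysomal arrays (71.1, 76.9 and 74.3) lay nearer to the total side than the wild-type polysomal arrays (88.7 and 88.6). The count moved with single arrays: it was 1115 without wild-type total replicate 1, 1135 without knockout total replicate 2 and 1068 without wild-type polysomal replicate 2, and 37 genes passed when the change had to exceed 1.5-fold.

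Interactions were ranked among called genes that also passed in knockout lung with both knockout means at least 5. The lowest was that of C1qa, which macrophages make as part of complement C1q. Its knockout difference was 3.40 and its wild-type difference 7.80 (interaction -4.40, limma adjusted p = 0.000333). The polysomal levels were near each other, 10.97, 11.37 and 11.23 in knockout and 11.67 and 11.49 in wild type, whereas the total levels were 7.29, 7.88 and 8.20 in knockout and 3.93, 3.93 and 3.49 in wild type, under 5, so the size of the wild-type difference is not well measured. The same held for Pef1, a calcium-binding adaptor, with 7.65, 7.66 and 7.12 on the knockout total arrays, 3.47, 3.49 and 3.48 on the wild-type total arrays, 9.73, 10.18 and 9.98 on the knockout polysomal arrays and 9.98 and 10.23 on the wild-type polysomal arrays (interaction -4.14, limma adjusted p = 8.35e-05). The phosphatase Ppp5c (-2.97, adjusted p = 0.000242) and the lysosomal Pld3 (-2.73, adjusted p = 0.0104) followed. Apbb1 (-2.86) and Lgals3bp (-2.70) passed with all arrays, but Apbb1 did not without either wild-type polysomal array (adjusted p of 0.0513 and 0.0634), and Lgals3bp did not without knockout total replicate 3, wild-type polysomal replicate 1 or knockout polysomal replicate 1 (adjusted p from 0.0511 to 0.0857).

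At the other end, Slfn4 was less lowered in knockout lung (-3.63) than in wild type (-8.30), where it was near the floor in polysomal RNA (2.68 and 2.40). Its interaction was 4.67 (limma adjusted p = 0.02) and did not pass without wild-type polysomal replicate 2 (adjusted p = 0.0642). The zinc finger genes Zfp946 (3.28, adjusted p = 0.00313) and Zfp948 (2.44, adjusted p = 0.00673), the membrane protein gene Tmem184c (2.95) and Lcorl (2.60) were also less lowered. Tex15 (2.34, adjusted p = 0.0242) did not pass without wild-type total replicate 1, knockout total replicate 1, wild-type polysomal replicate 1 or knockout polysomal replicate 2 (adjusted p from 0.0517 to 0.0862).

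Interaction calls within the lists are given as counts. Of the 135 Zfp genes 36 were above, where 8.06% of all genes were above, and by limma 0 were below at an adjusted p under 0.05 and 6 at an unadjusted one; the list's median was -0.96 in wild-type lung and -0.56 in knockout lung. Ubiquitin-conjugating enzymes had 7 of 25 above (0 below, and 1 at an unadjusted p under 0.05), and Ube2v2 passed with 2.19 (limma adjusted p = 8.35e-05). Lysosomal genes had 19 of 47 below, the proteasome 13 of 43 and endothelial markers 10 of 19, where 14.2% of all genes were below. Those 3 lists had medians of 1.34, 2.19 and 1.74 in wild-type lung and of 0.85, 1.56 and 1.19 in knockout lung. Of the ribosomal proteins 6 of 21 were below and 1 above, with medians of -0.83 in wild type and -0.93 in knockout. Rplp2, the acidic stalk protein whose start is printed above, was lower on knockout polysomes (-0.33) and higher on wild-type polysomes (0.42), with an interaction of -0.75 (limma adjusted p = 0.00917). Atf4 and Atf5 were below, with interactions of -0.74 (adjusted p = 0.0486) and -0.93 (adjusted p = 0.00906).

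Opposite signs were rare. In wild-type lung 44.5% of genes were higher and 27.9% lower. In both genotypes 32 genes passed with opposite signs, all of them with a passing interaction. That all but follows from 2 called differences of opposite sign in the same fit, so it adds no support. Tusc2, a tumour suppressor candidate, had -0.74 in knockout and 1.03 in wild-type lung (interaction -1.78, limma adjusted p = 0.00558). Hras, the small GTPase, had -0.95 and 0.38 (interaction -1.33, adjusted p = 0.00435). The lipid-transfer gene Stard10 had -1.04 and 0.59, and Yipf4 of the Golgi 0.91 and -0.65. Smc4, a condensin subunit, was higher on knockout polysomes (0.79) and lower on wild-type polysomes (-0.60).

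**Figure D4:**
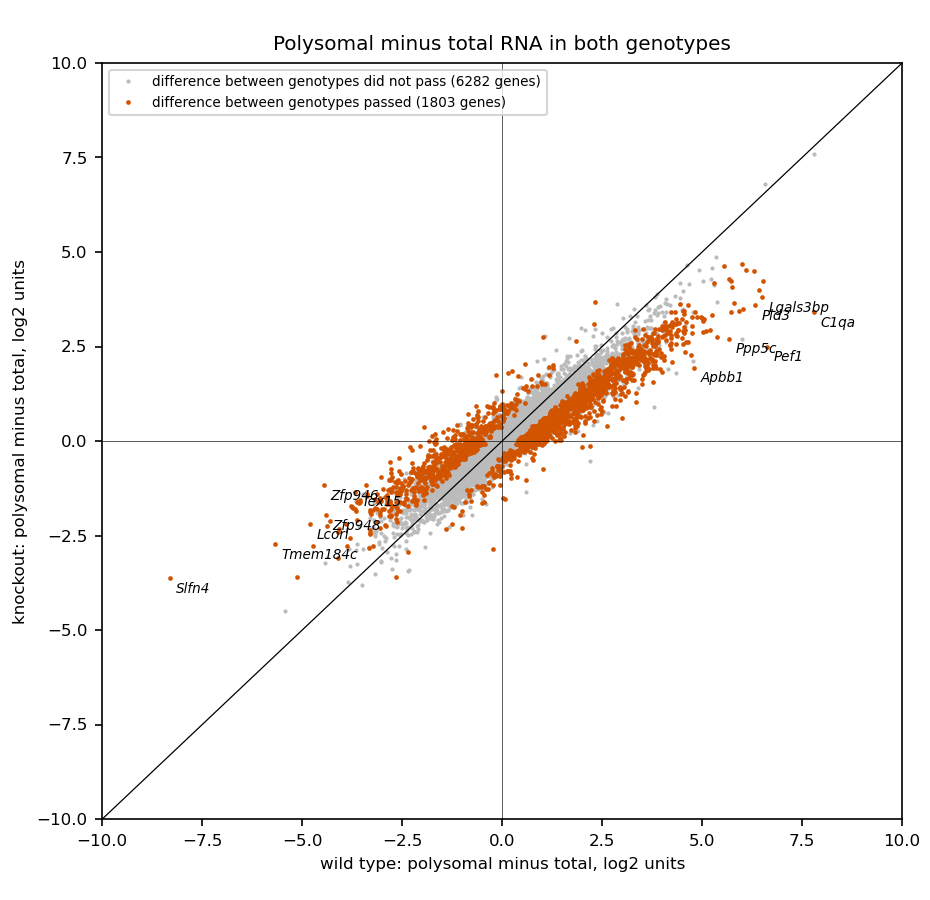
Polysomal minus total RNA of each of the 8085 tested genes in wild-type lung (x axis, log2 units) and in knockout lung (y axis, log2 units); orange points passed the test of the difference between genotypes (1803 genes) and grey points did not, and the diagonal marks equal differences. Of the called genes 1609 lie nearer to 0 in knockout than in wild-type lung. Names mark 12 genes, the 6 with the largest change in each direction. They were taken from called genes that passed in knockout lung with both knockout means at least 5.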

How the data were processed

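The authors deposited log2 expression values, 1 for each probe set on each array, computed with GCRMA per the submitters' processing notes, which name no version. An Affymetrix Two-Cycle kit labelled 100 ng of RNA, per the labels' protocols. Probe sets are named by RefSeq accession. Of 26180, 15228 matched 1 gene of the RefSeq table of GRCm38.p6. Exact repeats of another probe set's values (7538) stayed in the adjustment of p-values.

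Probe sets at log2 5 or more on at least 2 of the 11 arrays were tested (13802), and the one with the highest mean stood for each of 8085 genes. Two-sided tests used lmFit and eBayes of limma 3.58.1 (R 4.3.3) on all 11 arrays with a mean for every group (7 residual degrees of freedom), with Benjamini-Hochberg adjustment over the 13802 probe sets and a threshold of 0.05; the fit was tested on simulated data. All adjusted p-values come from it. With 3 arrays against 3, precision is limited by their number. Levels near 2 to 3 are background, and a filter lets a gene pass through the group where it is high. Alternatives were other filters, normalizations, replicate blocks, thresholds and left-out arrays.

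Named were the 12 largest differences in each direction with both means at least 5, and 4 with 1 mean under 5. These were taken from genes that passed with no overlap between groups. Also named were 6 interactions in each direction, among genes that passed this test and the knockout one with both knockout means at least 5. To these came 2 members of each list by smallest p and a set of translation and lung genes. Further list members, and the genes with opposite signs, were named after their values were seen. The lists and alternatives were chosen with earlier results of these data known. RefSeq starts were read from the promoter table. Figures used matplotlib 3.10.9.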

Additional observations from a re-analysis of the deposited data

Results flagged for a closer look

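For 66 of the 132 genes named by the rule, the difference between polysomal and total RNA was not the same in knockout and wild-type lung. The calls came from the interaction test of limma (adjusted p under 0.05). Over all genes tested the share was 1803 of 8085 (22.3%). The rule took 12 genes because they passed this test and others for a large difference or a small p. The count of 66 was thus partly set by the choice. Each value in parentheses is the knockout difference minus the wild-type difference in log2 units. All 66 had the same sign of difference in both genotypes. There were 2 wild-type polysomal arrays. Only the 12 genes named for their interaction were checked with 1 array left out, and of these Tex15, Lgals3bp, Apbb1 and Slfn4 lost the call. Whether the other calls hold with 1 array left out was not tested.

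Of these genes, 45 had a higher mean in polysomal RNA of both genotypes, by less in knockout lung. The widest changes were those of C1qa (-4.40), Pef1 (-4.14), Ppp5c (-2.97), Apbb1 (-2.86), Pld3 (-2.73) and Lgals3bp (-2.70). Next came Rabac1 (-2.43), Rora (-1.90), Dnaic1 (-1.89), Cbr2 (-1.83), Ccnd3 (-1.62) and Foxj1 (-1.60). Smaller changes were measured for Ltbp4 (-1.57), H2-Ab1 (-1.48), Fth1 (-1.40), H2-DMb1 (-1.32), Muc1 (-1.26) and Des (-1.25). Below these stood Tagln (-1.25), Ier2 (-1.24), Slc1a5 (-1.17), Eef2 (-1.16), Krt19 (-1.14) and Itgax (-1.13). In the same direction lay Atg101 (-1.13), Ltf (-1.10), Psmd13 (-1.07), Psmb10 (-1.04), Esam (-0.97) and Psap (-0.95). Values nearer to 0 were those of Serpinh1 (-0.92), Eif6 (-0.91), Slc29a1 (-0.91), Aqp5 (-0.85), Lcn2 (-0.84) and Gstm1 (-0.82). A further group held Ndufs3 (-0.81), Sdhc (-0.79), Dcn (-0.67), Sf3b2 (-0.66), Sars (-0.65) and Snrnp70 (-0.64). The narrowest changes of these genes were those of Icam2 (-0.60), Dad1 (-0.56) and Ccnd2 (-0.52).

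Another 12 genes had a lower mean in polysomal RNA of both genotypes, by less in knockout lung. These were led by Slfn4 (4.67), Zfp946 (3.28), Tmem184c (2.95), Lcorl (2.60), Zfp948 (2.44) and Tex15 (2.34). The others were Ube2v2 (2.19), Znrf2 (1.54), Ppbp (1.43), Zfp367 (1.38), Eif4e (0.98) and Tug1 (0.98). Higher by more in knockout lung were Dnajc7 (0.44), Eif3a (0.79), Ube2o (1.37) and Tk1 (1.59). Lower by more in knockout lung were Rpl37a (-0.94), Atf5 (-0.93), Atf4 (-0.74), Rpl32 (-0.70) and Pkig (-0.56).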

How the results depend on the processing

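The count of 5275 genes for polysomal against total RNA in knockout lung stayed within 1.5 times under every alternative except a minimum fold of 1.5, which left 2603 genes, 1748 higher and 855 lower. Leaving out 1 knockout array gave 4779 to 5005 genes, 2920 to 3065 higher and 1859 to 1940 lower. The share of higher genes, 60.6%, was 54.7% after quantile normalization, 57.2% with equal array medians and 55.0% with no filter. The interaction count of 1803 ran from 1068 to 2087 when 1 array was left out, was 473 at a threshold of 0.01 and 37 with a minimum fold of 1.5. Of the 39 lists, 28 had a median above that of all genes, and 27 to 31 under the alternatives; the median of the noncoding probe sets, -1.23, moved to -0.08 with no filter, which adds dim probe sets. Values of a pair of genes that did not pass changed sign: Pabpc1 was 0.03 without knockout total replicate 2 (range -0.25 to 0.03 with 1 array left out) and Sftpc 0.01 without knockout polysomal replicate 2 (range -0.07 to 0.01); the cause was not tested. Of the 126 named genes that passed, those that lost the call when 1 array was left out were Cd3g, Eif4ebp2, Mcl1, Eif4e, Tex15 and Xbp1; after quantile normalization Xbp1 (0.10) and H1f2 (0.21) did not pass. Deviations from the group means were correlated between polysomal and total arrays. The 3 same-letter pairs gave -0.12, -0.13 and 0.32, against -0.21 to 0.30 for other pairs. Deviations cancel within a group, so every array is bound to show both signs. These values therefore cannot decide whether the letters of the replicate sets pair the arrays. Positive values were found for polysomal replicate 1 with total 2 (0.30), 2 with 3 (0.32) and 3 with 1 (0.27), and all other pairs were negative. The labels do not say whether these pairs share a lung, and a fit paired in this way was not run. With the letter as a fixed replicate block 5106 genes passed and 1289 in the interaction, and as a random replicate block 5303 and 1851 (correlation 0.031). The planned description by protein length was not run, since a protein table is not used here. Arrays near background limit the sizes of dim genes.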

Other observations

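These groups were put together after their values were seen, so their counts describe the groups and support nothing. Class I and class II antigen presentation genes with an H2 symbol were all higher on knockout polysomes, 12 of 12 tested, with a median difference of 1.34 against 0.13 over all genes. H2-K1, a class I heavy chain, had 3.09 (SE 0.16) and H2-Aa, a class II alpha chain, 1.16 (SE 0.18). Members of this family are alike in sequence, and how probes were shared between them is uncertain. The vacuolar proton pump that acidifies lysosomes was higher in 14 of 17 genes and 3 did not pass (median 0.89), with Atp6v1h at 2.66 and Atp6v1a at 2.20. Coatomer genes, which coat vesicles of the early secretory route, were higher in 7 of 8 cases (median 0.89), with Copb1 at 2.17. Citric acid cycle enzymes were higher in 12 of 17 cases and lower in 1 (median 1.06), with Dlst at 1.62 and Suclg1 at 1.60, while Suclg2 was the lower one (-0.52).

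Some complexes of transcription initiation leaned the other way. TBP-associated factors had 7 lower, 2 higher and 3 not passing of 12 (median -0.46), with Taf6 at -1.41 and Taf9b at -1.38. Mediator subunits had 9 lower, 4 higher and 8 not passing of 21 (median -0.28). Med28 (-2.14) and Med1 (-1.43) were lower, and Med24 (1.27) and Med23 (1.24) were higher.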
